A study of Mus musculus with 33 samples.

Results

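The genes described here are 10 glutathione S-transferases of the mouse, Gstm1, Gstm2, Gstm4, Gstm5, Gstm7, Gsta3, Gsta4, Gstp1, Gsto1 and Gstt1, followed in single germinal vesicle oocytes of 3 Nlrp5 genotypes. They were taken by name from the deposited count table, and all 10 had an entry among its 35321 genes. The set was drawn up because Gstm1 had already been seen higher in Nlrp5 +/- and Nlrp5 -/- oocytes in these same data, and the question was whether its paralogs differed in the same way. The values of Gstm1 are therefore a description.

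Nlrp5 encodes NALP5, a core protein of the subcortical maternal complex of the oocyte, and the mutant line was made on the C57BL6/Babr background by CRISPR/Cas9 editing, which left a small deletion and a premature stop codon. RNA was sequenced from single oocytes of females aged 3 weeks, released by collagenase digestion of the ovary, and 33 oocytes are covered here: 10 Nlrp5 +/+, 16 Nlrp5 +/- and 7 Nlrp5 -/-. They were divided, by the stage that the study's staging heat map shows for each oocyte from its RNA, into the less mature non-surrounded nucleolus (NSN) stage, with 4 Nlrp5 +/+, 9 Nlrp5 +/- and 4 Nlrp5 -/- oocytes, and the more mature surrounded nucleolus (SN) stage, with 6, 7 and 2 oocytes. The labels give no stage, and the study's wording gives fewer Nlrp5 +/- oocytes per stage than were read from that heat map, so every staged Nlrp5 +/- value rests on this reading. Oocyte 15, an Nlrp5 -/- oocyte, had no stage and entered no comparison within a stage. Values over all 33 oocytes, over all 7 Nlrp5 -/- oocytes or by index set include it. Nlrp5 -/- and Nlrp5 +/- females were littermates, whereas most Nlrp5 +/+ females came from the founding colony, so that genotype and litter cannot be told apart in the comparisons with Nlrp5 +/+. The oocytes fell into 10 sets that share a first library index, and no first index was shared between genotypes, whereas second indices were.

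No mouse is named in the sample labels, so the oocytes of a genotype and stage were treated as 1 sample. No test was run, and every standard deviation (SD) below is the spread between oocytes, not between mice. Levels are normalized counts, which are read counts divided by a factor for the depth of each oocyte. Total counts on genes lay between 4223595 and 15573360 per oocyte. Nlrp5 itself had a median normalized count of 11807 in Nlrp5 +/+, 7978 in Nlrp5 +/- and 2105 in Nlrp5 -/- oocytes, and the highest Nlrp5 -/- oocyte (2556) lay below the lowest Nlrp5 +/- oocyte (5062). Oocyte markers, 8 genes such as Gdf9 and Zp3, summed to between 15565 and 30941 CPM (counts scaled to the total of the oocyte) in each oocyte, with oocyte 15 at the low end.

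Glutathione S-transferases join the tripeptide glutathione to reactive, mostly fat-soluble molecules and so make them soluble and ready for export. The cytosolic enzymes are grouped into classes by sequence, among them mu (Gstm), alpha (Gsta), pi (Gstp), omega (Gsto) and theta (Gstt), and work as dimers. Many of these genes respond to the transcription factor NRF2, which binds antioxidant response elements when a cell meets oxidants or electrophiles. In the ovary they are also known from cells that make steroids.

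The mu class genes lie side by side. On chromosome 3 of GRCm38, the build of the count table, Gstm5 (chr3:107895821-107898686, forward strand) was followed by Gstm7 (chr3:107926334-107931817), Gstm2 (chr3:107981702-107986453), Gstm1 (chr3:108012255-108017973) and Gstm4 (chr3:108040408-108044894), all 4 on the reverse strand. Gstm6 and Gstm3, which are not among the 10 genes, lie between Gstm7 and Gstm2. The whole cluster spans 149 kb, and 25.8 kb separate Gstm2 from Gstm1. Gsta3 lies on chromosome 1 (chr1:21240589-21265661), Gsta4 on chromosome 9 (chr9:78182774-78209349), Gstt1 on chromosome 10 (chr10:75783813-75798584), and Gstp1 (chr19:4035407-4037985) and Gsto1 (chr19:47854970-47864790) on chromosome 19.

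Closely related genes can share reads, so the canonical transcripts (GENCODE M39) were compared. Gstm1 and Gstm2 had their longest identical run, 60 bases, inside the coding sequence of Gstm1, from base 482 to base 541 of a transcript of 1380 bases. It is shown because a read that lies wholly within it fits both genes.
Gstm1 and Gstm2 shared run: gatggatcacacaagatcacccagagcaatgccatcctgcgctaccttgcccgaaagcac
Of all 50-base words of the Gstm1 transcript, 0.826% also occurred in a Gstm2 transcript and 9.32% in Gstm3, whose median was 0 normalized counts. Gstm4, Gstm5, Gstm7, Gsta3, Gsta4, Gsto1 and Gstt1 shared no such word with another gene of the family. Gstp1 shared 56.3% of its words with Gstp2, so reads of Gstp1 and Gstp2 may have been divided between these genes, and the level of Gstp1 is uncertain for that reason. Gstm5 overlaps 4933431E20Rik and Gsto1 overlaps Cfap43, each on the opposite strand, with 7730 and 432 counts on the overlapping gene over the 33 oocytes. Whether counting used the strand is not given in the sources used here.

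RefSeq promoter windows were found for 9 of the 10 genes, without Gsta4. The 250 bases before the RefSeq start are given for Gstm1 and Gstm2, whose means were higher in mutant oocytes, and for Gstm5, the most abundant gene of the cluster (GRCm38.p6, each 5′ to 3′ on the strand of its gene). Capitals mark a match to the antioxidant response element core, TGACNNNGC, searched on both strands.
Gstm1 (chr3:108017974-108018223, reverse strand): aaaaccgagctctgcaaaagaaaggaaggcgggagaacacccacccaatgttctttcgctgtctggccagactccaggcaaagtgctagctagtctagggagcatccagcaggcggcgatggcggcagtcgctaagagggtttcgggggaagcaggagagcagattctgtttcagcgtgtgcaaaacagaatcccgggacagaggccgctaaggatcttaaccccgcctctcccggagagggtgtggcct
Gstm2 (chr3:107986421-107986670, reverse strand): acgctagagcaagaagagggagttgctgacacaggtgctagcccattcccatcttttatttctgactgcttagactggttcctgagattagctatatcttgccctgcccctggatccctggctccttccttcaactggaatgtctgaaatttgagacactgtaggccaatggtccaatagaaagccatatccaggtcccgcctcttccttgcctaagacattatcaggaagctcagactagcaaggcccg
Gstm5 (chr3:107895604-107895853, forward strand): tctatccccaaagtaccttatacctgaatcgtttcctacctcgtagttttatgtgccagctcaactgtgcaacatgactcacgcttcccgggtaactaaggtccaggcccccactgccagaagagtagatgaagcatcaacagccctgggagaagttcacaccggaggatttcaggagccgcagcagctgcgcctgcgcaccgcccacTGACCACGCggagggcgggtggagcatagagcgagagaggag
The core occurred in 10.2% of 32851 mouse promoter windows of this length, and among the 9 windows in those of Gstm5 and Gsta3. The site of the steroidogenic NR5A receptors, CAAGGTCA, occurred in 1.33% of windows and in none of the 9. TATAAA occurred in 12.4% of windows and in that of Gstm7. The Gstm1 and Gstm2 windows held none of the 3 motifs, which says only that these letters are not in these windows.

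Per kilobase of transcript, the 10 genes fell into 3 abundant and 7 low genes. Over all 33 oocytes the median level per kilobase was 1598 normalized counts for Gstm5, 226 for Gstp1 and 213 for Gsta4. Gstm1 (14.3) and Gstm2 (13.1) came next, and Gsto1 (4.84), Gsta3 (1.08), Gstt1 (0.907), Gstm7 (0.716) and Gstm4 (0.396) were close to 0. Neighbours in this order overlapped from oocyte to oocyte: in the Nlrp5 +/+ group, Gstp1 ranged from 86.8 to 263 and Gsta4 from 121 to 349 per kilobase, whereas every Gstm5 value (879 to 2712) lay above them. The place of Gstm1 differed between genotypes. It had the lowest median of the 10 in Nlrp5 +/+ oocytes, at 0.243 per kilobase, and the fourth highest in Nlrp5 +/- oocytes (16.1).

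**Figure D1:**
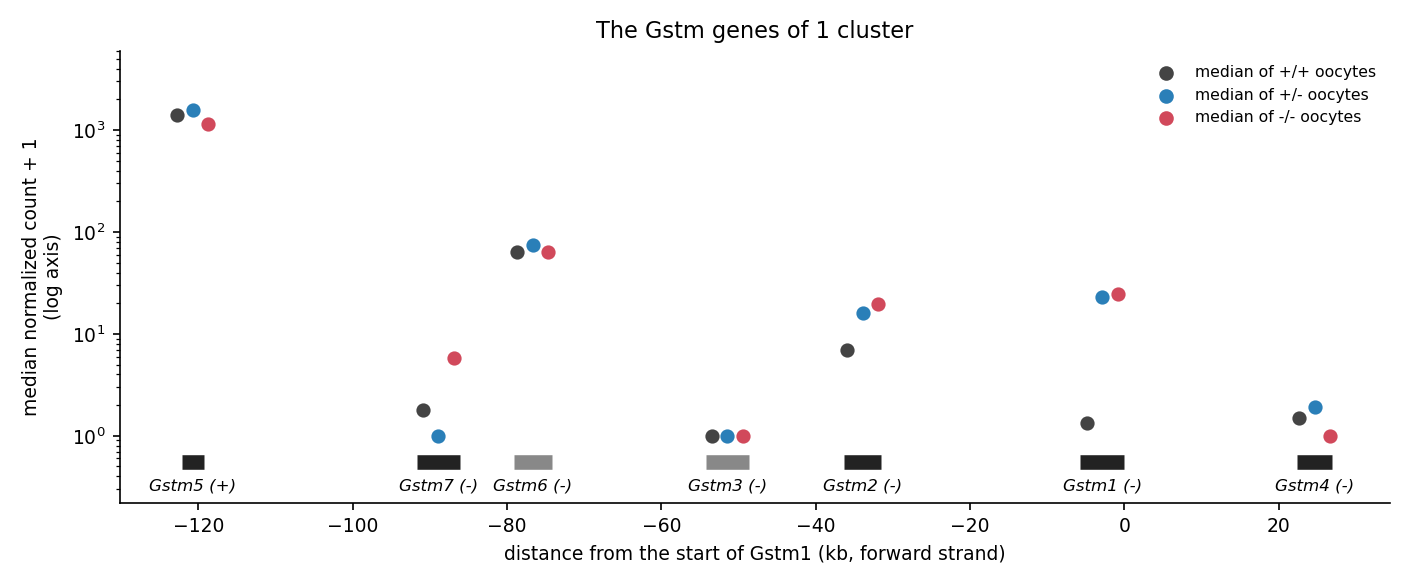
The 7 Gstm genes of the cluster by distance from the start of Gstm1 in kb along the forward strand (bars along the bottom, black for the genes described here and grey for Gstm6 and Gstm3), with the median normalized count plus 1 of the 10 Nlrp5 +/+, 16 Nlrp5 +/- and 7 Nlrp5 -/- oocytes on a log axis. The medians of Gstm1 were 0.336, 22.2 and 23.9, while Gstm5, at the far end of the cluster, stood between 1154 and 1570 in each genotype.

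Gstm1 was nearly absent from Nlrp5 +/+ oocytes and present in most oocytes of both mutant genotypes. It encodes a mu class enzyme that is abundant in liver and in steroid-making cells. At the NSN stage the 4 Nlrp5 +/+ oocytes had normalized counts of 0, 0, 0.672 and 2.77, and the 4 Nlrp5 -/- oocytes had 19.8, 22.1, 24.0 and 97.0. The 9 Nlrp5 +/- oocytes ranged from 1.32 to 129 with a median of 33.1. All of the Nlrp5 -/- oocytes and 8 of the 9 Nlrp5 +/- oocytes lay above the highest Nlrp5 +/+ oocyte, and oocyte 64, at 1.32, did not.

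At the SN stage mutant oocytes again lay above Nlrp5 +/+ with few exceptions. The 6 Nlrp5 +/+ oocytes ranged from 0 to 5.02 with a median of 0.859, and the 7 Nlrp5 +/- oocytes from 0 to 35.2 with a median of 20.8. Both Nlrp5 -/- oocytes, at 16.2 and 23.9, and 6 of the 7 Nlrp5 +/- oocytes lay above the highest Nlrp5 +/+ oocyte. Oocyte 38, in which no Gstm1 read was counted, was the exception. In all, Gstm1 exceeded the highest Nlrp5 +/+ oocyte of its stage in 14 of 16 Nlrp5 +/- and 6 of 6 staged Nlrp5 -/- oocytes.

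Few reads lay behind these values. Gstm1 reads summed to 4 over the Nlrp5 +/+ NSN oocytes (exact 95% Poisson interval 1.09 to 10.2) and to 13 over the Nlrp5 +/+ SN oocytes (6.92 to 22.2). In the Nlrp5 +/- oocytes they summed to 335 (300.1 to 373) at NSN and 133 (111 to 158) at SN, and in the Nlrp5 -/- oocytes to 197 (170.5 to 227) and 45 (32.8 to 60.2). These intervals cover counting error only, since the reads carry no molecular identifiers and cannot be taken for separate molecules. The groups hold unequal numbers of oocytes, so these sums are no comparison of levels.

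**Figure D2:**
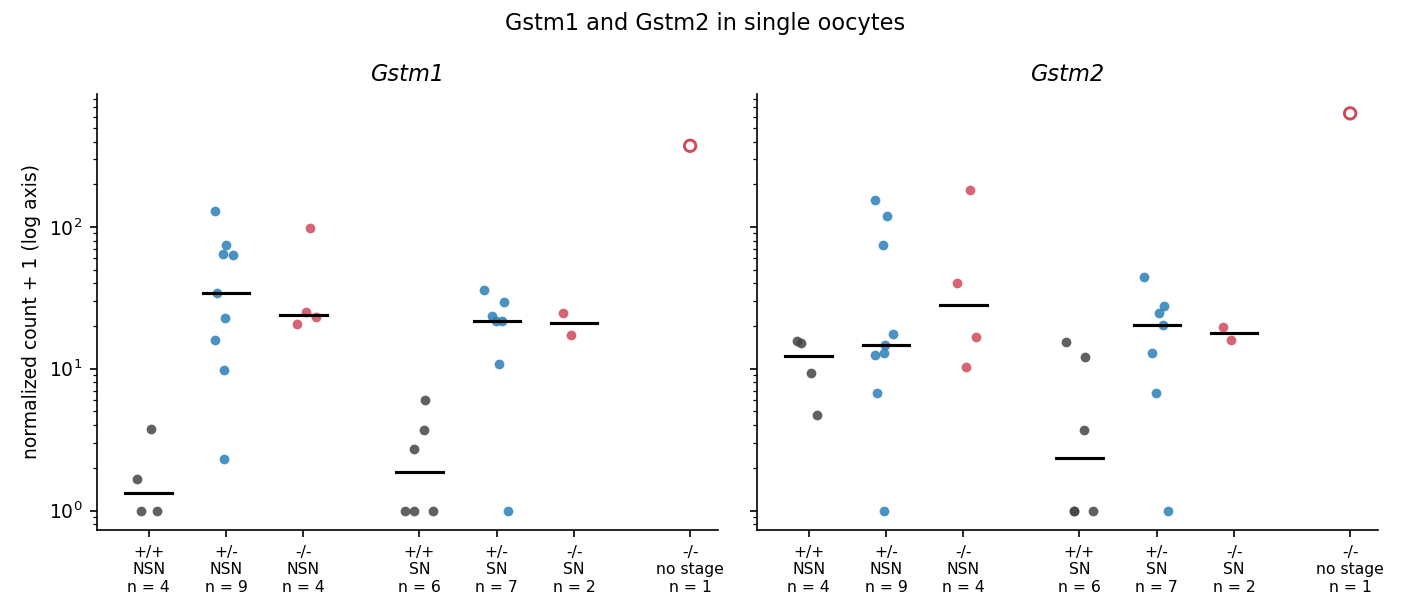
Normalized count plus 1 of Gstm1 (left) and Gstm2 (right) on a log axis in every oocyte, grouped by stage and genotype, with a black line at each group's median and an open circle for oocyte 15, which has no stage. The Nlrp5 +/+ oocytes reached at most 5.02 for Gstm1, below 20 of the 22 staged mutant oocytes, whereas for Gstm2 they reached 14.8 and overlapped with the mutant oocytes.

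The mean of Gstm1 at NSN was 0.859 ± 1.31 (SD, n = 4) in Nlrp5 +/+, 45.3 ± 40.7 (SD, n = 9) in Nlrp5 +/- and 40.7 ± 37.6 (SD, n = 4) in Nlrp5 -/- oocytes. At SN it was 1.57 ± 2.03 (SD, n = 6), 19.7 ± 11.7 (SD, n = 7) and 20.04 ± 5.44 (SD, n = 2). As log2 fold changes of means, each plus a pseudocount of 1, Nlrp5 +/- against Nlrp5 +/+ gave 4.64 at NSN and 3.01 at SN, and Nlrp5 -/- against Nlrp5 +/+ gave 4.49 and 3.03. The comparisons with Nlrp5 +/+ share their control oocytes and are not independent of each other. With levels this close to 0 in the controls the fold depends on the pseudocount, and with 5 in place of 1 it was 3.10, 1.91, 2.96 and 1.93 in the same order. With no regard to stage the value of Nlrp5 +/- against Nlrp5 +/+ was 3.94, and that of the 6 staged Nlrp5 -/- oocytes was 3.93, or 5.19 with oocyte 15 added.

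Gstm2 encodes a second mu class enzyme and is the nearest neighbour of Gstm1 among the 10 genes on one side. It was higher in the mutant genotypes on average, but its oocytes overlapped with Nlrp5 +/+. At NSN it had 3.70, 8.30, 14.1 and 14.8 normalized counts in Nlrp5 +/+ and 9.23, 15.8, 38.9 and 182 in Nlrp5 -/- oocytes. The Nlrp5 +/- oocytes ranged from 0 to 153 with a median of 13.6, and 4 of the 9 lay above the highest Nlrp5 +/+ oocyte. Oocytes 61, 62 and 63, which share a first index, held the 3 highest Nlrp5 +/- values, 153, 73.5 and 118.

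At SN, Gstm2 ranged from 0 to 14.5 with a median of 1.34 in Nlrp5 +/+ oocytes and from 0 to 43.6 with a median of 19.4 in Nlrp5 +/- oocytes. The 2 Nlrp5 -/- oocytes had 14.8 and 18.8, so the lower of them stood just above the highest Nlrp5 +/+ oocyte. Log2 fold changes against Nlrp5 +/+ were 2.03 at NSN and 1.79 at SN in Nlrp5 +/- and 2.48 and 1.65 in Nlrp5 -/- oocytes. Taken over medians in place of means, the Nlrp5 +/- NSN value was 0.26. Within the Nlrp5 +/+ range of other-cell markers described below, which kept 2 Nlrp5 +/- oocytes at each stage, the Nlrp5 +/- values were -0.70 at NSN and 0.30 at SN. Without oocyte 14 the Nlrp5 -/- NSN value was 0.99. With no regard to stage Nlrp5 +/- against Nlrp5 +/+ gave 2.12, and the staged Nlrp5 -/- oocytes gave 2.59, or 4.05 with oocyte 15 added.

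The 3 abundant genes overlapped between genotypes at both stages and were under 2-fold in the comparisons with Nlrp5 +/+. Gstm5, a mu class gene known from testis and brain, had a mean of 1499.5 ± 533 (SD, n = 4) in Nlrp5 +/+, 2138 ± 894 (SD, n = 9) in Nlrp5 +/- and 1247 ± 500.2 (SD, n = 4) in Nlrp5 -/- oocytes at NSN, and of 1515 ± 594 (SD, n = 6), 1595 ± 242 (SD, n = 7) and 1332 ± 251 (SD, n = 2) at SN. The log2 fold changes against Nlrp5 +/+ lay between -0.27 and 0.51. Oocytes 54, 63 and 64, at up to 3672, lay above all 4 Nlrp5 +/+ NSN oocytes, the highest of which had 2131.

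Gsta4 encodes an alpha class enzyme that acts on 4-hydroxynonenal, a product of lipid peroxidation. Its mean at NSN was 401 ± 132 (SD, n = 4) in Nlrp5 +/+, 676 ± 258 (SD, n = 9) in Nlrp5 +/- and 378 ± 184 (SD, n = 4) in Nlrp5 -/- oocytes, and 6 of the 9 Nlrp5 +/- oocytes lay above the highest Nlrp5 +/+ oocyte. At SN the means were 521 ± 179 (SD, n = 6), 449 ± 114 (SD, n = 7) and 349 ± 85.4 (SD, n = 2), with no mutant oocyte above the highest Nlrp5 +/+ oocyte. The log2 fold change of Nlrp5 +/- against Nlrp5 +/+ was thus 0.75 at NSN, above 95.8% of the genes averaging at least 10 normalized counts there, and -0.21 at SN, and that of Nlrp5 -/- was -0.09 and -0.58.

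Gstp1, the pi class enzyme, had a narrow range in Nlrp5 +/+ NSN oocytes, with 196, 217, 223 and 238 normalized counts. The 4 Nlrp5 -/- NSN oocytes had 71.98, 125, 146 and 239, and 3 of them lay below the lowest Nlrp5 +/+ oocyte, with a log2 fold change of -0.58. The Nlrp5 +/- NSN oocytes ranged from 87.04 to 447 with a median of 203. At SN the ranges were 78.4 to 233 in Nlrp5 +/+, 70.6 to 279 in Nlrp5 +/- and 192 to 231 in Nlrp5 -/- oocytes, and log2 fold changes were 0.13 and 0.22.

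**Figure D3:**
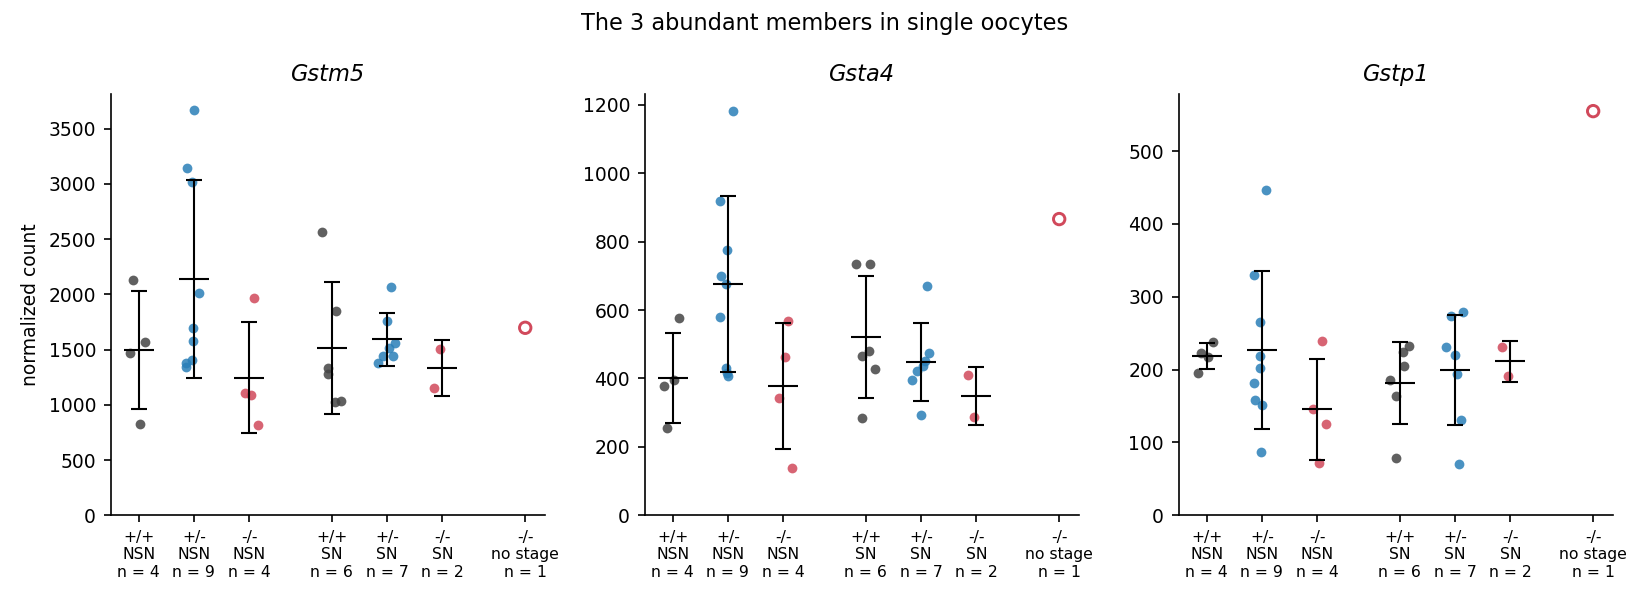
Normalized counts of Gstm5, Gsta4 and Gstp1 on linear axes from 0 in every oocyte, by stage and genotype, with the mean and SD of each group in black and oocyte 15 as an open circle. The groups overlapped for each gene at each stage, with means of 1247 to 2138 for Gstm5, 349 to 676 for Gsta4 and 145 to 227 for Gstp1.

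The other 5 genes had few counts in staged oocytes. Gsto1, an omega class gene whose product can also reduce dehydroascorbate, reached 47.4 in an Nlrp5 +/+ NSN oocyte and 52.7 in oocyte 14, and its NSN means of 15.7, 15.04 and 18.6 in Nlrp5 +/+, Nlrp5 +/- and Nlrp5 -/- were within the spread between oocytes. Its SN means were 4.57, 9.23 and 7.16. Gstm7 did not exceed 13.6, Gstm4 9.94, Gsta3 8.29 and Gstt1 18.5 normalized counts in any staged oocyte. Gsta3 was at 0 in both Nlrp5 -/- SN oocytes, which allows a level of up to 1.41 normalized counts (3 counts over both oocytes). Gstm7 had 6.75 and 9.41 in the Nlrp5 -/- SN oocytes, above all 7 Nlrp5 +/- SN oocytes (at most 5.76), with an average of 2.66 over both groups. In this comparison 5.25% of the genes that averaged at least 10 were separated in the same way.

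To set the 10 genes against the rest of the transcriptome, a gene counted as higher or lower when its group means differed at least 2-fold, provided that it reached 10 normalized counts on average over both groups. In Nlrp5 +/- against Nlrp5 +/+ oocytes at NSN, 2.03% of 13732 genes were higher and 1.09% were lower. Gstm1 and Gstm2 were among those higher, of 6 of the 10 genes that passed the minimum, and none of the 6 was lower. At SN, 1.14% of 13295 genes were higher and 0.805% lower, and of 5 genes that passed Gstm1 and Gstm2 were again higher and none lower. In Nlrp5 -/- against Nlrp5 +/+ oocytes at NSN, 4.93% of 13833 genes were higher and 3.21% lower, and of 6 genes that passed Gstm1 and Gstm2 were higher and none lower. At SN, 4.07% of 13351 genes were higher and 5.99% lower, but Gstm1 and Gstm2 fell under the minimum, with 6.19 and 7.73 normalized counts on average over the oocytes compared, and none of the 3 genes that passed was called.

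Gstm1 at both stages and Gstm2 at SN passed the minimum only through the mutant oocytes. Gstm2 at NSN had a mean of 10.2 in Nlrp5 +/+ oocytes, so a 2-fold lower mutant mean would have left it under the minimum. Gstm1 and Gstm2 could thus have been called in no other direction at either stage, and these counts describe them and add no evidence. The calls also hung on single oocytes. Without oocyte 14 the Nlrp5 -/- NSN log2 fold change of Gstm1 was 3.63 but its average fell under the minimum, and Gstm2, at 0.99, was under 2-fold. Without oocyte 47 the Nlrp5 +/- SN values were 2.82 for Gstm1 and 1.45 for Gstm2, and neither was called. Without oocyte 46, Gstm2 alone was called in Nlrp5 +/- SN oocytes.

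The genotypes were also compared by overlap. Every Nlrp5 -/- NSN oocyte lay above every Nlrp5 +/+ NSN oocyte for 3.96% of genes that passed the minimum, and of the 10 genes for Gstm1. At SN this held for 7.24% of genes and none of the 3 that passed, while Gstm1 and Gstm2, under the minimum, were separated as well. Every Nlrp5 +/- oocyte lay above every Nlrp5 +/+ oocyte for 0.175% of genes at NSN and 0.0226% at SN, and for none of the 10 genes. The median log2 fold change of the 10 genes was 0.63 and 0.14 in Nlrp5 +/- at NSN and SN and 0.52 and 0.38 in Nlrp5 -/- oocytes, beside medians of 0.04, -0.01, 0.00 and -0.00 over all genes that passed. This median includes Gstm1, chosen for its rise, and genes under the minimum. Without Gstm1 it was 0.51, 0.13, 0.23 and 0.22, and over the 6, 5, 6 and 3 genes that passed it was 0.63, 0.13, 0.07 and -0.19.

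**Figure D4:**
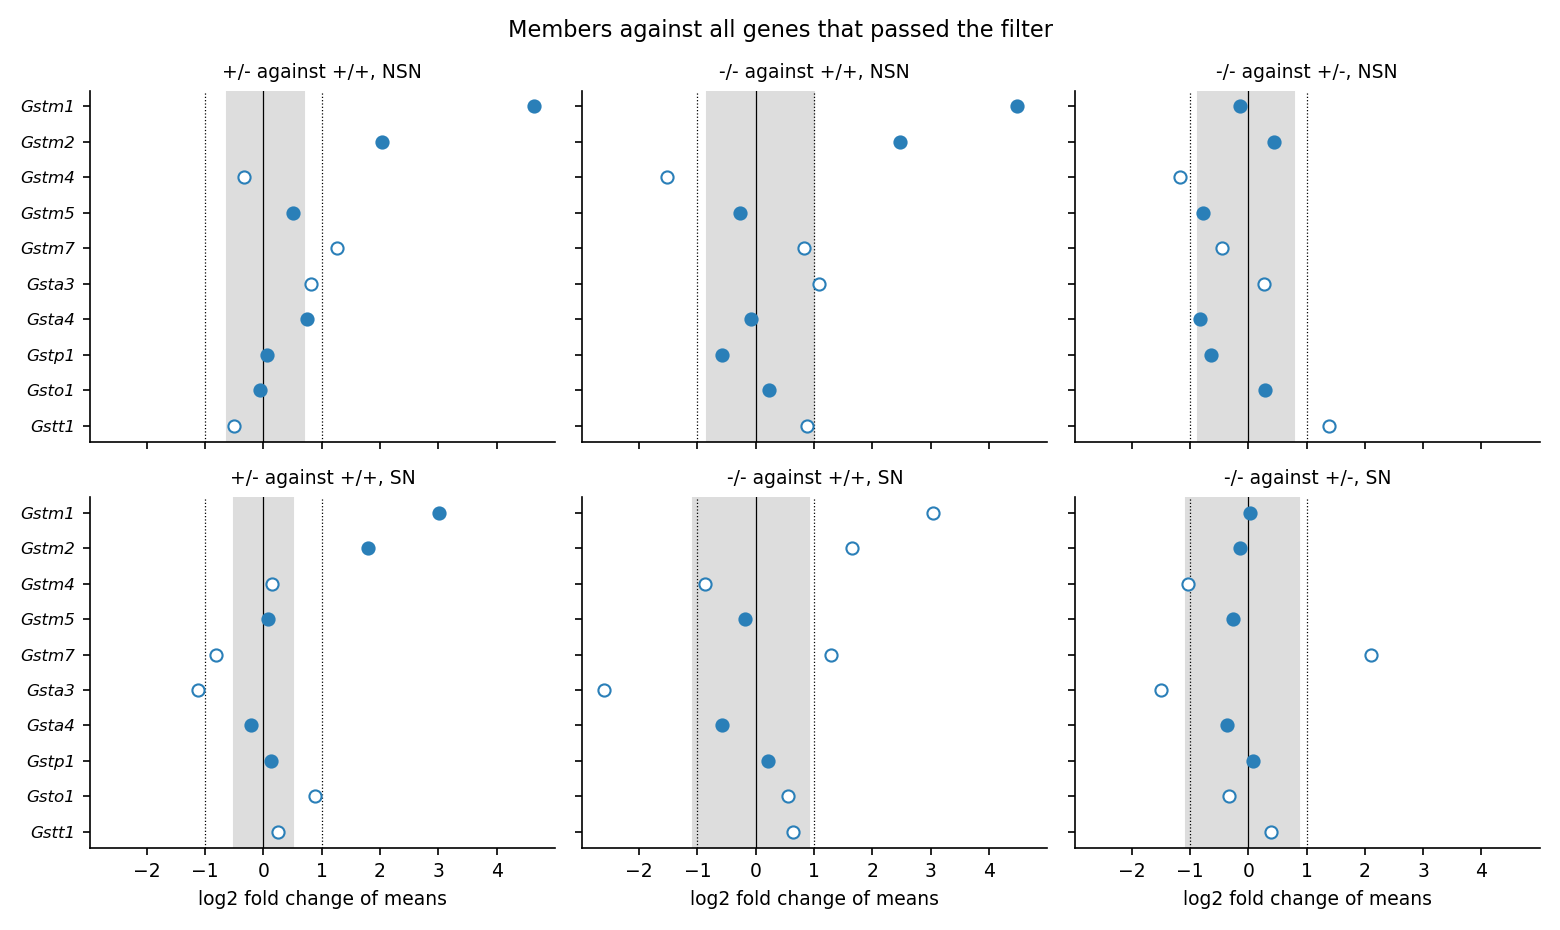
Log2 fold change of means of each of the 10 genes in 6 comparisons, NSN in the upper row and SN in the lower, with filled circles for genes that reached an average of 10 normalized counts over both groups and open circles for the others. The grey band holds the middle 90% of all genes that passed, dotted lines mark 2-fold, and Gstm1 and Gstm2 lay to the right of the band in all 4 comparisons with Nlrp5 +/+ and inside it in both comparisons of Nlrp5 -/- with Nlrp5 +/-.

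The level of Gstm1 did not separate the mutant genotypes from each other. Nlrp5 -/- against Nlrp5 +/- gave a log2 fold change of -0.15 at NSN and 0.03 at SN, and Gstm2 gave 0.45 and -0.15. At NSN 3.07% of genes were at least 2-fold higher and 3.43% lower in Nlrp5 -/- than in Nlrp5 +/- oocytes, and at SN 3.35% and 5.56%, with none of the 10 genes in either set. The lowest log2 fold changes of an abundant gene were seen at NSN, where Gsta4 (-0.84) and Gstm5 (-0.78) had lower means in Nlrp5 -/- than in Nlrp5 +/- oocytes, with overlap between oocytes for both genes. Without oocyte 14 the Gstm1 value at NSN was -1.01, and Gstm1, Gstm2, Gstm5 and Gsta4 were all at least 2-fold lower. Every Nlrp5 -/- oocyte lay above every Nlrp5 +/- oocyte for 0.476% of genes at NSN and 5.25% at SN, and for none of the 6 and 5 of the 10 genes that passed the minimum.

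Between stages, Gstm1 and Gstm2 had lower means at SN than at NSN in mutant oocytes. The 2-fold calls depended on single oocytes, and the direction turned under some other settings. In Nlrp5 +/- oocytes the log2 fold change of SN against NSN was -1.16 for Gstm1 and -1.22 for Gstm2, beside 7.21% of all genes at least 2-fold lower and 2.02% higher. Both genes were under 2-fold when oocyte 61 was left out. Within the Nlrp5 +/+ range of other-cell markers described below, which kept 2 oocytes at each stage, the values turned to 1.02 and 0.015, and Gstm2 also turned over medians (0.48) and with oocyte 61 counted as SN (0.17). In Nlrp5 -/- oocytes Gstm1 gave -0.99, and Gstm2 (-1.81) and Gsto1 (-1.26) were at least 2-fold lower, beside 11.4% of all genes lower and 3.32% higher. None of them was at least 2-fold lower without oocyte 14, and Gsto1 gave -0.58 without oocyte 31. Without oocytes 7, 13 and 14, high in those markers, Gstm1 turned to 0.18, with 1 SN oocyte against 2. In Nlrp5 +/+ oocytes 3 of the 10 genes passed the minimum, Gstm5 (0.01), Gsta4 (0.37) and Gstp1 (-0.26), and none differed 2-fold, beside 8.82% of all genes lower and 3.97% higher. Under the minimum, Nlrp5 +/+ oocytes gave -0.98 for Gstm2 and -1.59 for Gsto1, so lower SN means of these genes were also seen in them, and 0.47 for Gstm1.

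Other genes of the glutathione pathway were looked up from fixed lists. Of 20 further glutathione transferases, 19 were in the table and 11 or 12 passed the minimum in each comparison with Nlrp5 +/+. Mgst1, a membrane-bound transferase, was at least 2-fold higher in both mutant genotypes at NSN, beside 2.03% and 4.93% of all genes, and none was lower. With a mean of 7.005 in Nlrp5 +/+ NSN oocytes it passed the minimum only through the mutant oocytes and could not have been called lower. It ranged from 0 to 12.1 normalized counts in Nlrp5 +/+ NSN oocytes, from 1.14 to 114 in Nlrp5 +/- (log2 fold change 1.87) and from 13.9 to 50.5 in Nlrp5 -/- oocytes (2.31). All 4 of the last lay above Nlrp5 +/+, as for 3.96% of genes. Of the 9 Nlrp5 +/- NSN oocytes, with a median of 21.8, 5 lay above Nlrp5 +/+. At SN its log2 fold changes were 0.42 and 0.46. The second rests on 2 Nlrp5 -/- oocytes, at 18.1 and 44.5, and the lower of them lay below the Nlrp5 +/+ mean of 22.4. Mgst3, the most abundant gene of this list with a mean of 979.6 normalized counts over all oocytes, gave between -0.80 and 0.06.

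Of 5 genes of glutathione synthesis, Gclc, the catalytic subunit of the rate-limiting ligase, was at least 2-fold higher in Nlrp5 -/- SN oocytes (58.6 and 93.1 against 17.2 to 40.1 in Nlrp5 +/+, log2 fold change 1.36), beside 4.07% of all genes, and none was lower in any of the 4 comparisons. Without oocyte 7 the value was 0.99. Its log2 fold changes elsewhere lay between -0.48 and 0.05. Slc7a11, the cystine carrier that feeds synthesis, had a mean of 2217 and log2 fold changes between -0.44 and 0.10. Of 14 genes of glutathione recycling and peroxidases, Gpx7 was at least 2-fold higher in Nlrp5 -/- NSN oocytes (0.660 to 99.8, log2 fold change 2.61), with 2 of 4 oocytes above Nlrp5 +/+, beside 4.93% of all genes called higher. Its Nlrp5 +/+ mean was 4.16, so that it too passed the minimum only through the Nlrp5 -/- oocytes. Its fold change was 0.72 without oocyte 14 and turned to -1.28 without oocytes 13 and 14.

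Of 11 genes for glutathione breakdown and export 6 passed the minimum, and of 8 other NRF2 pathway genes 6 or 7 did, and none of those that passed differed 2-fold in these 4 comparisons. The most abundant of each list were G6pdx, a source of NADPH (mean 6261, log2 fold changes between -0.09 and 0.25), Abcc4, an export pump (mean 513, -0.45 to 0.02), and Prdx1, a peroxiredoxin (mean 10397, -0.58 to 0.21). G6pdx belongs to the recycling list. The lists had medians between -0.18 and 0.36 in the 4 comparisons, beside medians within 0.04 of 0 over all genes.

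Markers of other ovarian cells moved with Gstm1. Of 36 genes chosen as markers of granulosa, theca and interstitial, or stromal, vessel and blood cells, 30 had a mean under 50 normalized counts in Nlrp5 +/+ oocytes and were summed, a restriction chosen after the data were seen. Their sum in Nlrp5 +/+ oocytes was 21.9 to 36.6 CPM at NSN and 20.3 to 39.8 CPM at SN. In Nlrp5 +/- oocytes it ranged from 29.7 to 389 CPM (median 46.9) at NSN and from 23.2 to 102 CPM (median 52.0) at SN, above the highest Nlrp5 +/+ oocyte in 7 of 9 and 5 of 7 oocytes. In Nlrp5 -/- oocytes it was 46.95 to 608 CPM at NSN and 59.0 and 145 CPM at SN, above in 4 of 4 and 2 of 2. Of the whole lists, the 16 granulosa genes, which include some that oocytes express, overlapped at NSN, with sums of 282 to 475 CPM in Nlrp5 +/+, 309 to 425 CPM in Nlrp5 +/- and 290 to 686 CPM in Nlrp5 -/- oocytes. The 9 theca and interstitial genes summed to 46.8 to 62.1, 45.9 to 344 and 52.5 to 304 CPM in the same order, and the 11 stromal, vessel and blood genes to 46.2 to 73.6, 58.1 to 88.7 and 86.2 to 121 CPM.

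Of the 30 markers, 8 were at least 2-fold higher in Nlrp5 +/- and 15 in Nlrp5 -/- than in Nlrp5 +/+ oocytes at NSN, and 9 in each mutant genotype at SN, of 12 to 18 that passed the minimum, beside 2.03%, 4.93%, 1.14% and 4.07% of all genes. The markers were kept for a low level in Nlrp5 +/+, and one that passes the minimum only through mutant oocytes cannot be called lower, so these counts describe them and are not read against those shares. Lower by at least 2-fold was 1 marker in Nlrp5 +/- NSN oocytes, Ptch1 of the theca and interstitial list (mean 80.5 in Nlrp5 +/+ and 37.3 in Nlrp5 +/-), and 1 in Nlrp5 -/- SN oocytes, Kdr of the stromal, vessel and blood list (40.1 and 16.04). Inha, the inhibin alpha chain of granulosa cells, Hsd3b1, a steroid-making enzyme of theca and interstitial cells, and Col1a2, a collagen chain, were among those at least 2-fold higher in every one of the 4 comparisons. Inhbb, Amh, Foxl2, Fst, Cyp17a1, Insl3 and Cdh5 were at 0 in all Nlrp5 +/+ NSN oocytes, Ptprc was at 0 in all Nlrp5 -/- NSN oocytes, and Wt1, Cdh5 and Ptprc were at 0 in both Nlrp5 -/- SN oocytes. The part of these cells in the Gstm1 difference was not tested.

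Hsd3b1 had the highest correlation with Gstm1 over the 33 oocytes. It ranged from 9.22 to 14.1 in Nlrp5 +/+ NSN oocytes, from 16.9 to 1177 in Nlrp5 +/- and from 53.7 to 1373 in Nlrp5 -/- NSN oocytes. At SN it ranged from 5.07 to 11.2, from 13.3 to 171 and from 51.4 to 128. No mutant oocyte overlapped with Nlrp5 +/+ at the same stage. All oocytes lay above Nlrp5 +/+ for 0.175% and 0.0226% of genes that passed the minimum in Nlrp5 +/- at NSN and SN. In Nlrp5 -/- oocytes the shares were 3.96% and 7.24%. Hsd3b1 was kept for a low level in Nlrp5 +/+ and picked for its correlation with Gstm1, so its separation is a description.

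**Figure D5:**
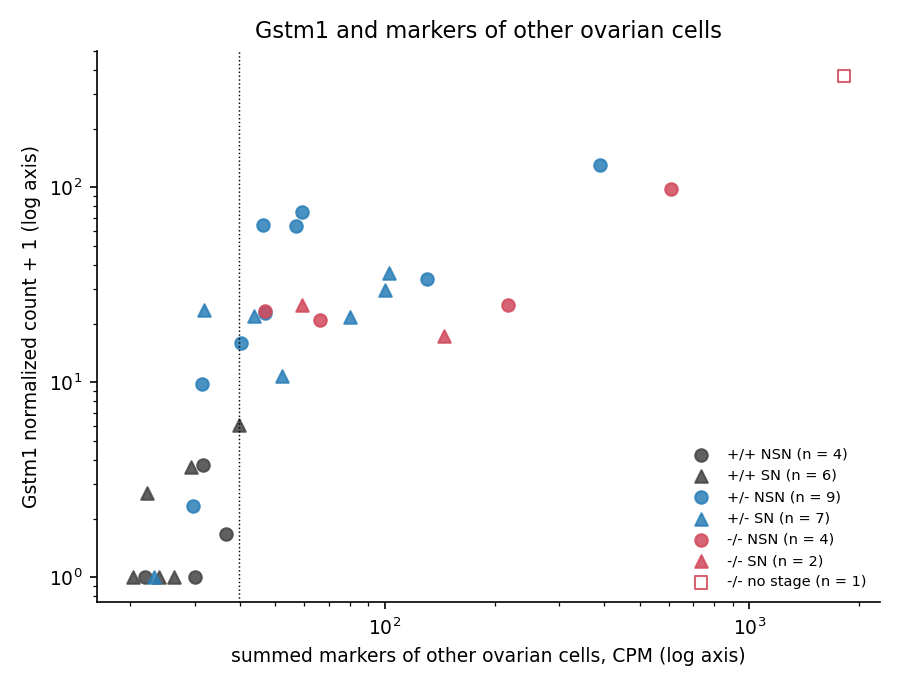
Gstm1 as normalized count plus 1 against the summed CPM of 30 markers of other ovarian cells, both on log axes, for all 33 oocytes, with colours for genotype, circles for NSN, triangles for SN and an open square for oocyte 15. The dotted line is the highest Nlrp5 +/+ oocyte at 39.8 CPM, with 4 Nlrp5 +/- oocytes to its left and 12 to its right.

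The oocytes with the fewest markers can be read on their own. In the 4 Nlrp5 +/- oocytes whose marker sum lay within the Nlrp5 +/+ range, Gstm1 was 1.32 and 8.80 normalized counts at NSN and 0 and 22.6 at SN, and 2 of the 4 lay above the highest Nlrp5 +/+ oocyte of their stage. Restricted to these, the log2 fold change of Gstm1 was 1.70 at NSN and 2.26 at SN, and that of Gstm2 was -0.70 and 0.30. Without the 5 staged oocytes over 3 times the highest Nlrp5 +/+ sum (7, 13, 14, 54 and 61), Gstm1 gave 4.28 at NSN in Nlrp5 +/- (7 oocytes left) and 3.56 and 3.28 in Nlrp5 -/- oocytes at NSN and SN, where 2 oocytes and 1 oocyte were left. No Nlrp5 -/- oocyte lay within the Nlrp5 +/+ range of markers.

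The genes most like Gstm1 over the 33 oocytes, by Pearson correlation of log2(normalized count + 1) among 13896 genes with a mean of at least 10, were Hsd3b1 (0.82), Thbs1 (0.77), Acta2 (0.75), Mgp (0.75), Col1a2 (0.75), Lgals1 (0.75), Gstm2 (0.75), Idh2 (0.74), S100a10 (0.74) and Nenf (0.72). They are given as a description, since the oocytes share genotypes, litters and index sets. Gstm2 was the only other glutathione S-transferase of the 10 among them, and without oocyte 15 it kept place 7. Within the 16 Nlrp5 +/- oocytes alone, Gstm1 had a Pearson correlation of 0.74 with Gstm2, 0.62 with Hsd3b1 and 0.68 with the marker sum, and of -0.02 with Gstm5, 0.14 with Gsta4 and 0.01 with Gstp1. The other genotypes differed from this. In the 10 Nlrp5 +/+ oocytes, where Gstm1 was near 0, it was 0.15 with Gstm2, -0.13 with Hsd3b1, 0.60 with the marker sum, -0.35 with Gstm5, 0.34 with Gsta4 and -0.15 with Gstp1. In the 7 Nlrp5 -/- oocytes it was 0.95 with Gstm2, 0.93 with Hsd3b1, 0.90 with the marker sum, 0.65 with Gstm5, 0.75 with Gsta4 and 0.78 with Gstp1, and without oocyte 15 it was 0.86, 0.84, 0.76, 0.66, 0.54 and 0.38 in the same order. By rank (Spearman's rho) the order was another in these 6 oocytes, 0.26, 0.43, 0.49, 0.14, 0.83 and 0.20, with Gsta4 the highest. In the Nlrp5 +/- oocytes rho was 0.75, 0.72, 0.72, -0.09, -0.03 and 0.06.

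By set of shared first index, the median of Gstm1 was 0, 1.72 and 2.68 in the 3 Nlrp5 +/+ sets and 15.2, 21.8, 27.4 and 68.4 in the 4 Nlrp5 +/- sets. The 3 Nlrp5 -/- sets had 16.2 in a set of 1 oocyte, 22.1, and 97.0 in the set with oocyte 15. The median of Gstm2 was 0, 8.92 and 11.04 in the Nlrp5 +/+ sets, 8.87, 15.1, 19.1 and 95.9 in the Nlrp5 +/- sets and 14.8, 18.8 and 182 in the Nlrp5 -/- sets. By these medians every mutant set stood above every Nlrp5 +/+ set for Gstm1, and for Gstm2 they overlapped. Single oocytes of the Nlrp5 +/- sets, 38 at 0 and 64 at 1.32, lay within the Nlrp5 +/+ range of Gstm1. The share of all genes whose set medians separate in this way was not computed. What the oocytes of a set share beyond an index is not given in the labels, and set and genotype cannot be told apart.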

How the data were processed

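Single-oocyte RNA libraries were sequenced by the authors after separating RNA from DNA. The submitters' processing notes name Trim Galore, HISAT2 and GRCm38; the study's methods name GRCm39, and the coordinates here are those of the deposited table. The deposited table, made by the authors, holds raw read counts per gene, without normalization, and 52 repeated entries of 35373 were left out. A table of read totals was not used. The authors' tables of called genes hold fold changes and p-values from DESeq2 and were not used.

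Genotype came from the labels and stage, which the labels do not give, from the oocyte numbers of the study's staging heat map. Size factors were medians of ratios over all 33 oocytes. Fold changes are ratios of means plus a pseudocount of 1, and a call of 2-fold required 10 normalized counts on average over both groups. No test was run, because the labels name no mouse. Total counts of 4223595 to 15573360 per oocyte limit low genes to a few reads.

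The 10 members and all gene lists were chosen with earlier results of these data known. All members were named. Of other pathway lists, genes with a mean of at least 10 and a 2-fold difference in a comparison with Nlrp5 +/+ were named, with the most abundant gene of each list, and the 10 genes most correlated with Gstm1. Alternatives were other scalings (total count, TMM, factors within a comparison), medians or pooled sums, pseudocounts of 5 and 0.5, no minimum or 100, no regard to stage, oocyte 61 as SN, and leaving out each oocyte. Leaving out oocytes with high markers of other cells, and pooling the stages without oocyte 15, were added after the data were seen. The fold change calculation was tried on simulated counts for Nlrp5 -/- against Nlrp5 +/+ NSN oocytes only, with genes averaging at least 10. That simulation does not cover Nlrp5 +/+ levels near 0, such as those of Gstm1, or the other comparisons. The tools were matplotlib 3.10.9, scipy 1.17.1, pandas 2.3.3 and numpy 2.4.6 under Python 3.11.15. Promoters came from RefSeq (GRCm38.p6) and transcripts from GENCODE M39, whose coordinates were not used.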

Additional observations from a re-analysis of the deposited data

Results flagged for a closer look

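Oocyte 15, the unstaged Nlrp5 -/- oocyte, entered none of the staged comparisons and held 9 of the 10 genes above every Nlrp5 +/+ oocyte. Its normalized counts were 372 for Gstm1, 631 for Gstm2, 18.5 for Gstm4, 53.8 for Gstm7, 9.25 for Gsta3, 866 for Gsta4, 555 for Gstp1, 146 for Gsto1 and 165 for Gstt1. All of these but Gsta4 were above every other oocyte of any genotype. Gstm5, at 1698, was the exception and lay within the Nlrp5 +/+ range. The same oocyte had the highest sum of the 30 markers of other ovarian cells (1821 CPM), the highest Hsd3b1 (4620 normalized counts), and the lowest share of oocyte markers (15565 CPM). The part of other cells in these values was not tested.

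Of 50 combinations of a gene and a group of 4 to 9 oocytes, 10 held an oocyte far from the rest by Dixon's criterion on the log2 scale. In 4 of the 10 every other oocyte was at 0, so that any single count met the criterion, and the usual chance rate of about 1 in 20 does not apply to them. Oocyte 14 was far above the other Nlrp5 -/- NSN oocytes for Gstm1 (97.0 against at most 24.0). It also had the only Gstm4 count of that group (0.693), which is 1 read. Oocyte 38 was far below the other Nlrp5 +/- SN oocytes for Gstm1 (0 against at least 9.72). Among Nlrp5 +/+ NSN oocytes, oocyte 70 had the only Gstm4 (9.41) and Gsta3 (4.70) counts and oocyte 79 the only Gstm7 count (3.70). Oocyte 40 had the highest Gstm7 of the Nlrp5 +/- SN oocytes (5.76). Oocyte 69 was the only Nlrp5 +/+ SN oocyte with no Gsta3 count (0), and oocyte 86 had the lowest Gstp1 of that group (78.4 against at least 164). Oocyte 63 had the lowest Gsto1 of the Nlrp5 +/- NSN oocytes (1.18 against at least 7.91). Of 30 pairs of a gene and a genotype comparison, none had all oocytes moving in opposite directions at NSN and SN.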

How the results depend on the processing

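No paired analysis was possible because the labels give the groups no shared replicate numbers. In the comparisons of genotypes, 229 of 264 alternative values of the main results stayed within 1 SD or 1.5 times of the reported value, and 35 moved. A reversal was scored only for fold changes of Gstm1 that had been called, never for counts, and none of those reversed. In Nlrp5 -/- against Nlrp5 +/-, where Gstm1 was not called, its sign did turn. At NSN it went from -0.15 to 0.26 over pooled sums, 0.22 with oocyte 61 as SN, and 1.25 with no regard to stage and oocyte 15 added. At SN it went from 0.03 to -0.05 over medians, -0.71 with oocyte 61 as SN, and -0.01 over staged oocytes with no regard to stage. The log2 fold change of Gstm1 against Nlrp5 +/+ stayed above 0 in all 41 alternatives, between 1.70 and 5.19. It moved with a pseudocount of 5 (2.96 and 1.93 in Nlrp5 -/- at NSN and SN), with no regard to stage and oocyte 15 added (5.19 in place of the Nlrp5 -/- SN value, but 3.93 over staged oocytes alone), and without oocytes above the Nlrp5 +/+ range of markers (1.70 in Nlrp5 +/- NSN). Leaving out each oocyte gave 4.27 to 5.24 and 2.82 to 3.46 in Nlrp5 +/- at NSN and SN, 3.63 to 5.09 and 2.74 to 3.48 in Nlrp5 -/-, and -1.01 to 0.22 and -0.27 to 0.27 in Nlrp5 -/- against Nlrp5 +/-.

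Counts of the 10 genes changed as follows. A minimum of 100 left 0 genes higher in the first 3 comparisons with Nlrp5 +/+ and 0 separated in Nlrp5 -/- NSN, since Gstm1 and Gstm2 were not tested. With no minimum, 3 genes were higher at NSN in Nlrp5 +/- (Gstm7 added) and in Nlrp5 -/- (Gsta3 added). Nlrp5 -/- SN then gained 3 higher (Gstm1, Gstm2, Gstm7), 1 lower (Gsta3) and 2 separated; 1 gene was lower in Nlrp5 +/- SN (Gsta3) and in Nlrp5 -/- NSN (Gstm4). Nlrp5 -/- against Nlrp5 +/- then had 1 higher and 1 lower at NSN (Gstt1, Gstm4) and 1 higher, 2 lower and 1 separated at SN. With no regard to stage and oocyte 15 added, 4 genes were higher in Nlrp5 -/- than in either other genotype (Gstm1, Gstm2, Gsto1, Gstt1). Over staged oocytes alone, 2 were higher than in Nlrp5 +/+ (Gstm1, Gstm2) and 0 than in Nlrp5 +/-. Either way 1 was separated from Nlrp5 +/+ (Gstm1). Medians left 1 gene higher in Nlrp5 +/- NSN (Gstm1). Pooled sums gave 1 higher in Nlrp5 -/- against Nlrp5 +/- NSN (Gstm2), and oocyte 61 as SN gave 1 lower at SN (Gstm2). Leaving out oocytes above the Nlrp5 +/+ marker range left 0 higher in Nlrp5 +/- at both stages, since Gstm1 (1.70 and 2.26) fell under the minimum, and 1 separated at each (Gsta4, Gstp1), and reversed Gstm2 at NSN (-0.70). Leaving out those over 3 times that range left 1 higher (Gstm2, 1.34, while Gstm1, at 3.56, fell under the minimum) and 1 lower (Gsto1) in Nlrp5 -/- NSN, 3 lower against Nlrp5 +/- (Gstm5, Gsta4, Gsto1), and reversed Gpx7 (-1.28). SN against NSN in Nlrp5 +/- reversed for Gstm2 over medians (0.48), with oocyte 61 as SN (0.17) and within the marker range (0.015), and for Gstm1 within it (1.02). The cause was not tested.

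Leaving out each oocyte, the number of genes higher ranged from 2 to 3 and from 0 to 2 in Nlrp5 +/- at NSN and SN, from 0 to 3 and from 0 to 0 in Nlrp5 -/-, and was 0 in Nlrp5 -/- against Nlrp5 +/-. The number lower was 0 in Nlrp5 +/- and Nlrp5 -/- SN, from 0 to 1 in Nlrp5 -/- NSN, and from 0 to 4 (without oocyte 14: Gstm1, Gstm2, Gstm5, Gsta4) and 0 against Nlrp5 +/-. The number separated ranged from 0 to 1 in Nlrp5 +/- at both stages, from 0 to 2 in Nlrp5 -/- NSN, and was 0 elsewhere. Limits are the few Gstm1 reads in Nlrp5 +/+ oocytes, 2 Nlrp5 -/- SN oocytes, unnamed mice, and stages assigned from RNA of these same oocytes.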
